A study of Homo sapiens with 16 samples.

Results

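The clustered replication-dependent histone genes encode the H1, H2A, H2B, H3 and H4 proteins that a cell makes when it copies its DNA. They were taken here as every protein-coding gene of the deposited count table with a symbol starting with HIST1H, HIST2H, HIST3H or HIST4H, which gave 71 of 60603 genes: 6 for H1, 17 for H2A, 18 for H2B, 15 for H3 and 15 for H4. Total RNA had been sequenced from the human leukaemia lines SKNO-1 and U-937, both of acute myeloid origin. SKNO-1 carries the RUNX1-RUNX1T1 fusion and U-937 has monocytic features. Each line had been treated for 24 h with the solvent DMSO, with all-trans retinoic acid (ATRA), with Corin, or with ATRA and Corin together at 0.1 µM each, and each of the 8 groups had 2 libraries. ATRA is a ligand of the retinoic acid receptors, and Corin is a dual inhibitor of the lysine demethylase and the histone deacetylases of the CoREST complex. SKNO-1 cells also received GM-CSF at 10 ng/mL in all 4 of their groups, which U-937 cells did not. Each line stands for 1 model, and the labels do not state that libraries of a group came from separate cultures, so the p-values measure only the spread between these libraries.

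Replication-dependent histone mRNAs are made mainly in S phase, when new nucleosomes are assembled. Most carry no introns and no poly(A) tail, and end instead just after a conserved stem-loop that binds the stem-loop binding protein SLBP and is cut by a complex guided by the U7 small nuclear RNA. H2A, H2B, H3 and H4 form the nucleosome core, while the linker histones of the H1 class bind the DNA that enters and leaves it. Some members are also known to give polyadenylated transcripts outside S phase, and HIST1H1T, HIST1H2AA and HIST1H2BA are known from the germline. A total RNA library captures both forms of transcript.

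The members lay in a few blocks of hg38 (GENCODE 44 annotation, 69 members matched). On chromosome 6, 32 members lay at chr6:26017032-26285638, 5 at chr6:27125897-27147562, 16 at chr6:27807479-27893891 and 2 at chr6:25723397-25727345. On chromosome 1, 9 lay at chr1:149782689-149887965, 3 at chr1:228424845-228463104 and 1 at chr1:143894544-143905977. HIST4H4 lay alone at chr12:14767999-14771131. The stem-loop was searched in the 120 bases after the stop codon, and 66 of the 69 annotated members held it, in 7 versions. The most frequent version, with 39 members, is given here for HIST1H3B, the H3 gene with the highest level, and in HIST3H2A, a gene whose change in U-937 ran against the rest. HIST4H4 and HIST1H2BJ show the 2 next most frequent versions, each found in 10 members. Capitals mark the 16 bases of stem and loop, with 5 bases on each side, in the sense of the transcript (chr6:26031592-26031617, minus strand; chr1:228457364-228457389, minus; chr12:14770719-14770744, minus; chr6:27132316-27132341, minus).
HIST1H3B: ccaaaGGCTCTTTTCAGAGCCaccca
HIST3H2A: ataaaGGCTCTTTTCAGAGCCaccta
HIST4H4: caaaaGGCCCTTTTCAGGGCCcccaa
HIST1H2BJ: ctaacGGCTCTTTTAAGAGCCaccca
The search took only sites that start with GG, end with CC, and have 6 base pairs around a loop of 4 bases starting with TT. All 4 therefore have this form by rule. HIST3H2A and HIST1H3B carry the same stem-loop letters. A link between the stem-loop and the members' levels was not tested. In 12 of the 66, an annotated transcript runs more than 100 bases past the site, among them HIST3H2A and HIST3H2BB.

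The promoters of 66 members were found in RefSeq (GRCh38.p14, 250 bases before to 50 after the start), and short motifs were searched on both strands. The TATAAA motif was in 66.7% of them, against 11.95% of 27305 promoters of the same length, and CCAAT was in 84.85% against 35.7%. The octamer ATTTGCAT, a motif known from H2B promoters, was in 39.4% against 1.8%, with 14 of 18 H2B and 11 of 16 H2A promoters holding it. The H1 box AAACACA was in all 6 of the H1 promoters and in 5.76% of all promoters. No CCAAT was found in 10 of the 13 H4 promoters, while all of the H1, H2A, H2B and H3 promoters matched held it. Below are the 200 bases before the start of 4 members on which the results turn, with motifs in capitals: the linker histone HIST1H1C (chr6:26056471-26056670, minus strand), HIST1H2BO (chr6:27893225-27893424, plus), HIST1H3B (chr6:26032100-26032299, minus) and HIST3H2A (chr1:228457874-228458073, minus).
HIST1H1C: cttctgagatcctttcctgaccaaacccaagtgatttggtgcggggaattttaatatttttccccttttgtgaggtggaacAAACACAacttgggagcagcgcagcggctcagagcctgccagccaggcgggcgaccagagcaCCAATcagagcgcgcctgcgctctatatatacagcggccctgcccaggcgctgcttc
HIST1H2BO: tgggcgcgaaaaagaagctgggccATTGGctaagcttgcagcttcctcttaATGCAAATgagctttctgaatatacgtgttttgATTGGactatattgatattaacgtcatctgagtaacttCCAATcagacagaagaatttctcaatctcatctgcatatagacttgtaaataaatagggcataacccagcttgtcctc
HIST1H3B: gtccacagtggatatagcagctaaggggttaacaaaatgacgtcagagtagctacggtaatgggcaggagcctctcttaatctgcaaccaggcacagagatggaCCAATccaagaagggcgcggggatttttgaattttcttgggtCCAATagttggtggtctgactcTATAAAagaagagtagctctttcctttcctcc
HIST3H2A: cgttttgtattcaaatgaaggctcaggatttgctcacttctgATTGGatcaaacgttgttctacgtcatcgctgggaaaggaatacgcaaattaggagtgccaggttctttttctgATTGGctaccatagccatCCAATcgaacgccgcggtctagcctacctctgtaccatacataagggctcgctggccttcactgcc
The HIST1H1C stretch shows 1 H1 box and 1 CCAAT, HIST1H2BO shows the octamer (read on the minus strand) beside CCAAT on both strands, and HIST1H3B shows CCAAT followed by TATAAA. The HIST3H2A stretch lies between HIST3H2A and HIST3H2BB, which starts at position 228458103 on the other strand, so these genes face away from each other. It holds CCAAT on both strands and neither ATTTGCAT nor TATAAA. A match is a run of letters and not a measured binding site.

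The libraries held 28.4 to 37.8 M estimated counts, of which the members took 0.196% to 0.898%. RUNX1T1 was at 95.4 to 155 CPM (counts scaled to a common library total) in the SKNO-1 libraries, and HOXA9 and HOXA10 at 37.1 to 88.2 CPM in the U-937 libraries, each near 0 in the other line. Of 8 markers of T cells, B cells, stroma and epithelium, 5 did not pass the filter on low counts in either line, and the others stayed at 2.85 CPM or less. Of these, CD79A, a B cell marker, was called higher in 5 of the 6 comparisons with DMSO. COL1A1, a collagen gene of stroma, was called higher in U-937 with Corin (by 3.10 on the log2 scale) and with both agents (by 2.84), at 0.817 CPM or less. The part of such cells in the members' values was not tested. The 2 DMSO libraries of SKNO-1 stood apart: over 58 members with at least 5 CPM the median log2 ratio of library 1 to library 2 was 0.99, against -0.11 to 0.05 in the other SKNO-1 groups and -0.29 to 0.36 in U-937. Over 9338 genes that difference had a Pearson correlation of 0.811 with the GC content of the transcripts, a description across genes, which are not replicates. The same correlation was 0.586 for the DMSO pair and 0.405 for the pair with both agents in U-937, and -0.435 for ATRA in SKNO-1. In the other groups it ran from -0.164 to 0.116. The members' median GC content was 56.1%, against 46.9% over all genes, and the part of GC content in the members' values was not tested. Because the 2 SKNO-1 DMSO libraries stood apart, the counts of members called in the SKNO-1 comparisons with DMSO are given with and without each of them. In bulk RNA, fewer cells in S phase and less histone RNA per cell cannot be told apart.

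**Figure D1:**
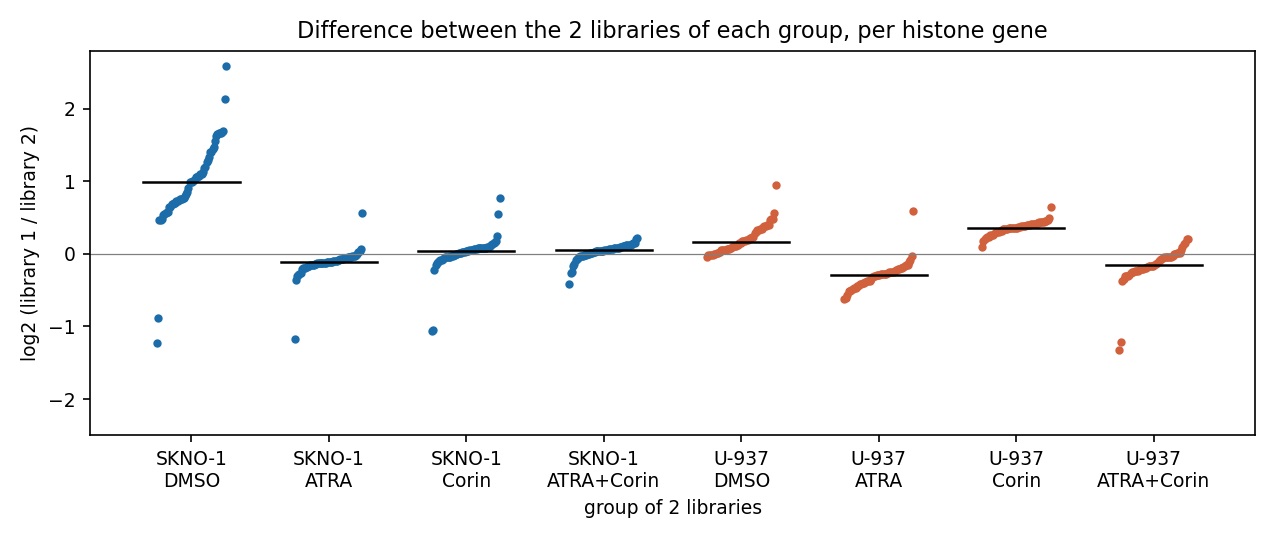
Log2 ratio of library 1 to library 2 of each group (y axis) for members with a mean of at least 5 CPM, with the median as a line. The 2 SKNO-1 DMSO libraries differ by a median of 0.99, the other groups by -0.29 to 0.36, and 3 points of HIST2H3A lie outside the axis.

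Near-identical copies limit single members more than sums. The authors' RSEM program divides reads that fit several genes, and 51.1% of the members' positive values were not whole, against 20.4% over all genes. In 48 of 69 members every 100-base window was unique among annotated transcripts, in 11 fewer than 50% of windows were, and HIST2H3A (shared with HIST2H3C) and HIST2H4B (shared with HIST2H4A) had 0 unique windows. Values of these pairs, of HIST1H4J and HIST1H4K, and of HIST1H2AI and HIST1H2AJ are therefore uncertain, and class sums are less so. HIST1H3J shared 32.5% of its windows with HIST1H2AM, of which 36.3% were unique. These genes are of different classes, so their values are uncertain and a class sum does not remove that. HIST2H2AA3 and HIST2H2AA4, near copies of each other, were not matched to the annotation. Their windows were not assessed, so their single values are uncertain as well. Exons of 12 members overlapped exons of another annotated gene, and strand use in counting is not given in the sources used here. The filter on low counts kept 61 members in SKNO-1 and 55 in U-937, with 53 kept in both. HIST1H1T, HIST1H2AA, HIST1H2BA, HIST1H3D, HIST1H4G, HIST1H4K, HIST2H3PS2 and HIST3H3 were kept in neither line. The 3 germline genes are among these 8, and 4 of the 8 had 0 counts in all 16 libraries. HIST1H3D was among these 4, but only 4.0% of its windows were unique and 96.0% were shared with another annotated coding gene. With DMSO that gene was at 77.1 CPM in SKNO-1 and 94.4 CPM in U-937 on plain library totals. The 0 counts of HIST1H3D are therefore uncertain.

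Per length, the members with the highest mean deposited TPM over the 16 libraries were HIST1H3B at 630 TPM, HIST1H4C at 624, HIST1H1C at 582 and HIST1H4H at 561. Among H2B genes HIST1H2BK (450 TPM), HIST1H2BD (446) and HIST1H2BO (412) led, and among H2A genes HIST2H2AA3 (255), HIST1H2AI (225) and HIST2H2AB (107) did. Among H3 genes HIST1H3B was followed by HIST1H3C at 277 TPM and HIST1H3J at 72.5 TPM. The gene lengths behind these TPM were uneven, and the order depends on them. HIST1H2AG had a length of 2250 bases and a mean of 110 CPM, where HIST2H2AB had 530 bases and 53.1 CPM. HIST1H2AG, HIST1H2BC, HIST2H2BE, HIST1H3H and HIST1H4E were among the leaders of their classes by CPM only.

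In U-937, ATRA alone raised most of the family. The summed level of all members was 4888 and 4464 CPM in the 2 DMSO libraries and 7297 and 8978 CPM in the 2 ATRA libraries, a ratio of the means of 1.74. Both ATRA libraries lay above both DMSO libraries in the sum of every class, with ratios of 1.61 for H1, 1.80 for H2A, 1.73 for H2B, 1.82 for H3 and 1.77 for H4. No test was made on these sums. By the quasi-likelihood test of edgeR, with p-values adjusted by Benjamini-Hochberg over all genes and called at a threshold of 0.05, 46 of 55 members were higher and 0 lower. Of all 17717 genes tested, 21.7% were called higher and 20.1% lower, and the median log2 fold change was 0.80 over the members and 0.02 over all genes. Both ATRA libraries lay above both DMSO libraries in 51 members and below in 0, against 37.2% and 35.3% of all genes.

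**Figure D2:**
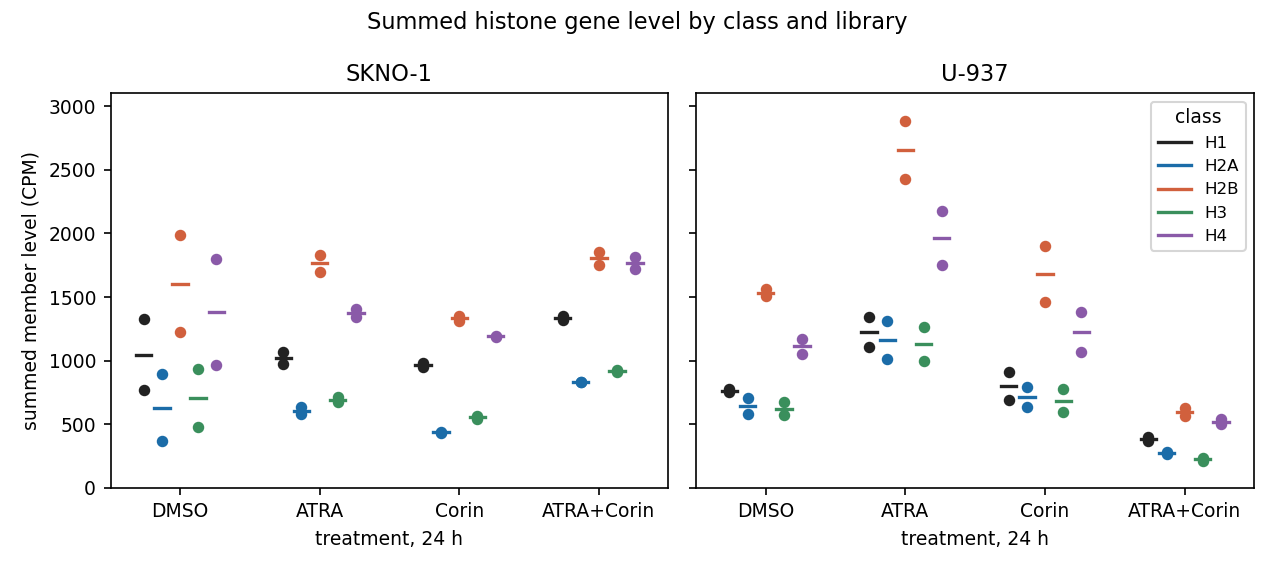
Summed CPM (y axis) of the members of each class in every library (points) with the mean of the 2 libraries (bars), by line and treatment (x axis). In U-937 the sums of all members are 7297 and 8978 CPM under ATRA and 1918 and 2092 CPM under ATRA and Corin, around DMSO values of 4888 and 4464 CPM.

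With both agents together, the same line went the other way. The summed level of all members fell to 1918 and 2092 CPM, 0.429 times the DMSO mean of 4676 ± 300.2 CPM (SD, n = 2). The ratio was 0.504 for H1, 0.428 for H2A, 0.390 for H2B, 0.362 for H3 and 0.468 for H4, and in every class both libraries lay below both DMSO libraries. Of the 55 members tested, 49 were called lower and 2 higher, where 32.2% of all genes were called lower and 33.1% higher. Both libraries lay below both DMSO libraries in 49 members and above in 4, against 40.3% and 41.2% of all genes. The median log2 fold change was -1.19 over the members and 0.03 over all genes. On plain library totals the ratio of the sums was 0.395 and the median over all genes -0.09. Corin alone left the sum at 5769 and 4455 CPM, which overlapped DMSO. With Corin, 6 members were called higher and 0 lower, against 8.55% and 4.4% of all genes.

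ATRA and both agents were each compared with the same 2 DMSO libraries. Side by side, 43 members were called higher with ATRA and lower with both agents, a pattern of calls found in 167 of all 17717 genes tested (0.943%). Another 6 were lower with both agents and not called with ATRA. HIST3H2A and HIST3H2BB were called higher in both, as were 18.3% of all genes, and HIST2H2AC was higher with ATRA and not called with both.

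**Figure D3:**
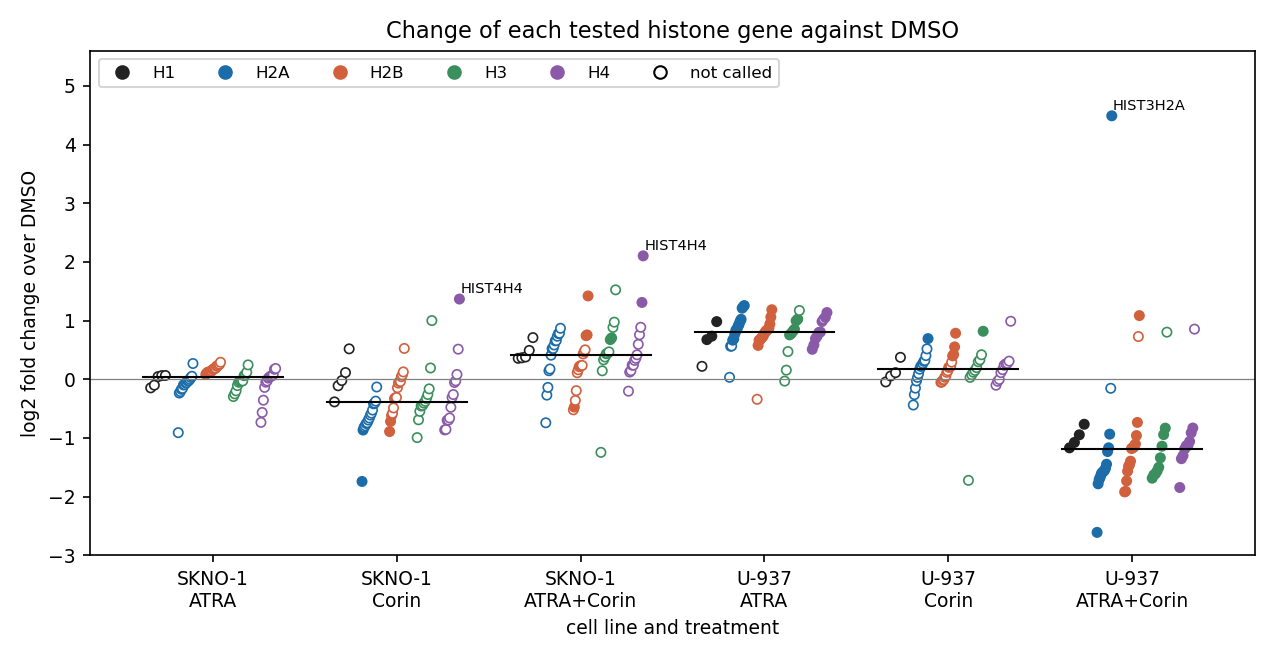
Log2 fold change over DMSO (y axis) of each tested member by line and treatment (x axis), colored by class, filled where the adjusted p was under 0.05, with the median as a line. The U-937 medians are 0.80 with ATRA, 0.17 with Corin and -1.19 with both, and HIST3H2A stands at 4.49.

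The linker histones followed the family in U-937. HIST1H1C, the H1 gene with the highest level, was at 311 and 318 CPM with DMSO, 479.6 and 569 CPM with ATRA, 369 and 284 CPM with Corin, and 155 and 170.5 CPM with both. ATRA lay above DMSO and both agents lay below it without overlap, with log2 fold changes of 0.74 ± 0.12 (SE, adjusted p = 3.42e-05, edgeR) and -0.95 ± 0.12 (adjusted p = 4.63e-07). HIST1H1B, an H1 gene known for expression in dividing cells, was at 93.3 and 84.1 CPM with DMSO, 151 and 200.5 CPM with ATRA and 38.8 and 39.8 CPM with both. HIST1H1B thus rose by 0.98 ± 0.14 and fell by 1.17 ± 0.14 on the log2 scale. HIST1H1E rose by 0.68 ± 0.14 and fell by 1.08 ± 0.14. HIST1H1D was at 119 and 111 CPM with DMSO, 133 and 136 CPM with ATRA and 62.0 and 73.1 CPM with both. Its ATRA libraries were above the DMSO libraries by 0.22 ± 0.12, which did not pass (adjusted p = 0.1485), while its fall of 0.77 ± 0.12 with both agents did. HIST1H1A had 3 counts over the 2 U-937 DMSO libraries and 0 in the other 6, and was not tested there.

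H2A genes had the largest class median fall with both agents in U-937, though not the largest fall by class sums. The sums were 0.362 times DMSO for H3, 0.390 for H2B and 0.428 for H2A. Of 15 H2A genes tested, 13 were lower and 1, HIST3H2A, higher, with a median of -1.55. HIST2H2AA3 was at 165 and 128 CPM with DMSO, 235 and 347 CPM with ATRA, and 66.6 and 57.8 CPM with both. HIST1H2AI was at 126 and 103 CPM with DMSO, 177 and 235 CPM with ATRA, and 38.2 and 41.6 CPM with both. The 3 groups did not overlap in either gene. HIST2H2AB was at 68.6 and 65.7 CPM with DMSO and fell by 1.59 ± 0.14 to 19.7 and 24.9 CPM, having risen by 0.84 ± 0.13 with ATRA. HIST1H2AJ had the largest rise of the family with ATRA, 1.26 ± 0.18 (adjusted p = 3.75e-06), from 7.11 and 5.16 CPM to 13.1 and 16.3 CPM. HIST2H2AA4, a near copy of HIST2H2AA3, rose by 1.24 ± 0.18, and read sharing between these 2 was not assessed. HIST1H2AD had the largest fall with both agents, -2.61 ± 0.34, from 6.90 and 5.05 CPM to 0.573 and 1.44 CPM. That value is uncertain, because only 18.0% of HIST1H2AD windows were unique and it shares exon bases with another annotated coding gene, which was at 94.4 CPM with DMSO and 34.9 CPM with both agents. HIST2H2AC was at 10.6 and 9.58 CPM with DMSO and 8.11 and 10.0 CPM with both agents, which overlap.

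For H2B, 14 of 16 tested members were lower with both agents and 15 were higher with ATRA. HIST1H2BO was at 177 and 173 CPM with DMSO, 273 and 324 CPM with ATRA, 201 and 156 CPM with Corin, and 42.3 and 50.4 CPM with both. It fell by 1.91 ± 0.13 with both agents (adjusted p = 9.57e-11), after a rise of 0.77 ± 0.12 with ATRA. HIST1H2BJ, one of the members known to give polyadenylated RNA too, was at 141 and 143 CPM with DMSO and 34.4 and 40.3 CPM with both, a fall of 1.92 ± 0.14. HIST1H2BK and HIST1H2BD, also of that list, fell by 1.40 ± 0.14 and 1.48 ± 0.12. All 7 tested members of the list (HIST1H1C, HIST1H2AC, HIST1H2BC, HIST1H2BD, HIST1H2BJ, HIST1H2BK and HIST2H2BE) were called lower with both agents, with a median of -1.18, and higher with ATRA, with a median of 0.72. The other 48 tested members had medians of -1.21 and 0.81. HIST1H2BE was at 0.998 and 0.721 CPM with DMSO, 0.800 and 0.557 CPM with ATRA and 1.11 and 1.75 CPM with both, and was higher with both than with ATRA by 1.07 ± 0.36 (adjusted p = 0.0181).

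H3 and H4 showed the same pair of directions. HIST1H3B was at 292 and 280.0 CPM with DMSO, 458 and 526 CPM with ATRA, 341 and 262 CPM with Corin, and 89.3 and 104 CPM with both. Its fall with both agents was 1.56 ± 0.12 (adjusted p = 2.26e-10) and its rise with ATRA 0.78 ± 0.12. HIST1H3C fell by 1.63 ± 0.18 and HIST1H3J by 1.5 ± 0.15, and both had risen with ATRA, by 0.76 ± 0.17 and 1.00 ± 0.13. HIST1H3J shares windows with HIST1H2AM of the H2A class. Of 10 tested H3 genes 9 were lower with both agents and 6 higher with ATRA. HIST1H4C was at 199 and 192 CPM with DMSO, 299 and 333 CPM with ATRA, 222 and 166 CPM with Corin, and 83.8 and 93.9 CPM with both. It fell by 1.13 ± 0.12 and rose by 0.69 ± 0.12. HIST1H4H fell by 1.3 ± 0.12, and HIST1H4J, which shares most windows with HIST1H4K, fell by 0.91 ± 0.22. Of 10 tested H4 genes 9 were lower with both agents and 9 higher with ATRA. The H3 or H4 members not called with both agents were HIST2H3A and HIST2H4B, neither of which has a unique window.

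Only the HIST3H2A and HIST3H2BB pair was called higher with both agents in U-937. HIST3H2A, which encodes a core H2A and is named H2AC25 in newer annotation, was at 1.48 and 1.38 CPM with DMSO, 3.01 and 3.64 CPM with ATRA, 2.46 and 2.14 CPM with Corin, and 31.1 and 33.0 CPM with both. Each treated group lay above DMSO, and both agents together lay far above the single agents. The log2 fold changes were 1.21 ± 0.20 with ATRA, 0.69 ± 0.20 with Corin (adjusted p = 0.0249) and 4.49 ± 0.18 with both (adjusted p = 2.64e-16). Beyond the sum of the single effects, HIST3H2A was higher by 2.58 ± 0.26 (adjusted p = 5.93e-08). HIST3H2BB, the H2B gene on the other side of the promoter stretch printed above, was at 8.0 and 6.77 CPM with DMSO, 15.4 and 18.3 CPM with ATRA, 12.3 and 9.28 CPM with Corin, and 14.4 and 16.9 CPM with both. It rose by 1.19 ± 0.16, 0.55 ± 0.16 and 1.09 ± 0.16, and its levels with ATRA and with both agents overlapped. HIST3H2BB was lower than the sum of the single effects by 0.65 ± 0.22 (adjusted p = 0.0321), but that call was lost in 8 of 14 alternatives, with values from -0.85 to -0.43 and a largest adjusted p of 0.2084. HIST3H2A and HIST3H2BB had no exon overlap with another gene that held counts. Transcripts annotated past the stem-loop exist for both, and the files do not show which form was measured.

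**Figure D4:**
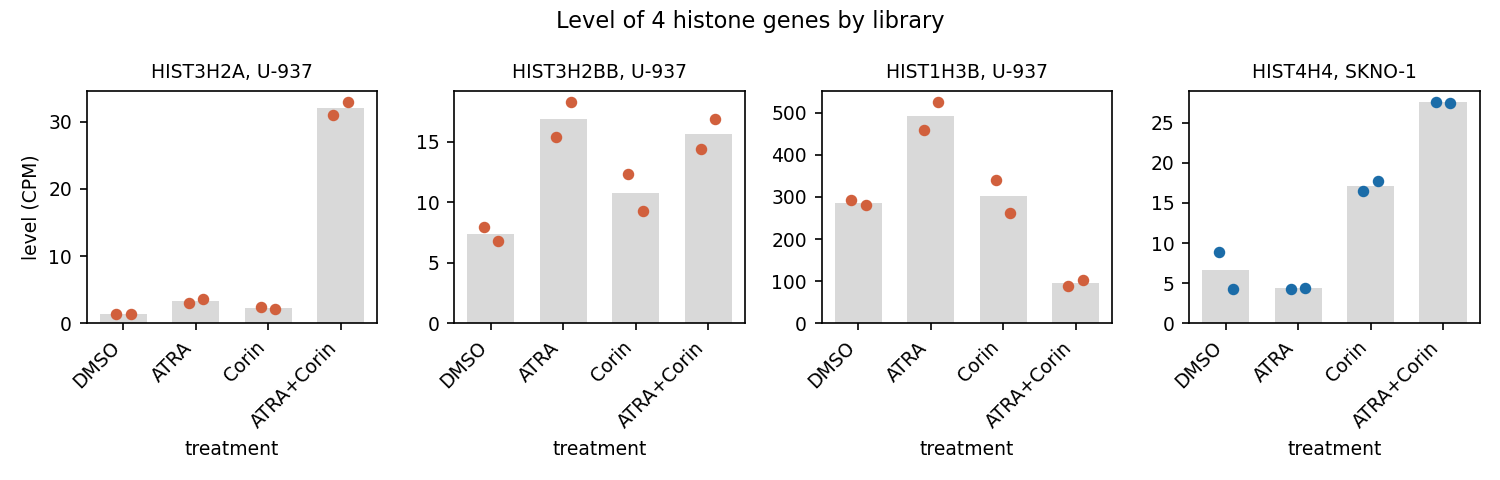
Level in CPM (y axis, from 0) of HIST3H2A, HIST3H2BB and HIST1H3B in U-937 and of HIST4H4 in SKNO-1, by treatment (x axis), with each library as a point and the mean as a bar. HIST3H2A reaches 31.1 and 33.0 CPM with both agents where HIST1H3B falls to 89.3 and 104 CPM, and HIST4H4 reaches 27.6 and 27.4 CPM.

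Adding 1 agent to the other, or to the sum of both single effects, gave the same picture in U-937. Against ATRA alone, both agents lowered 50 of 55 members and raised 2, where 24.8% of all genes were lower and 22.5% higher, with a member median of -2.17. The groups did not overlap in 50 lower and 2 higher members, against 37.4% and 36.1% of all genes. HIST1H2BO fell by 2.68 ± 0.13 in that comparison, and the raised members were HIST3H2A (3.28 ± 0.16) and HIST1H2BE, whose call was lost in 3 of 15 alternatives (0.71 to 1.38). Against Corin alone, 50 were lower and 2 higher (30.6% and 29.9% of all genes), with a member median of -1.52. HIST1H2BJ fell by 1.97 ± 0.14 and HIST1H2AL by 1.98 ± 0.21, while HIST3H2A (3.8 ± 0.17) and HIST3H2BB (0.53 ± 0.15) were higher, and the HIST3H2BB call was lost in 1 of 15 alternatives. Beyond additivity, 51 members were lower and 1 higher, against 15.3% and 8.09% of all genes, with a median of -2.28. HIST2H2AA4 (-3.20 ± 0.26) and HIST1H2AL (-2.91 ± 0.28) were furthest below the sum, with HIST2H3C (-3.11 ± 0.70, adjusted p = 0.0448), whose reads are shared with HIST2H3A. Read sharing of HIST2H2AA4 with its near copy HIST2H2AA3 was not assessed. The HIST2H3C call held in only 3 of 14 alternatives, with values from -3.83 to -2.61 and a largest adjusted p of 0.1486.

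With Corin alone in U-937, 6 of 55 members (10.9%) were called higher, near the 8.55% of all genes called higher. The 6 were HIST1H3I, HIST1H2BI, HIST3H2A, HIST3H2BB, HIST1H2BB and HIST2H2BF. HIST1H2BI went from 12.2 and 9.77 CPM to 21.8 and 16 CPM, by 0.79 ± 0.16 (adjusted p = 0.00131). HIST1H3I went from 3.38 and 2.72 CPM to 6.05 and 4.68 CPM, by 0.82 ± 0.24 (adjusted p = 0.0218). The call of HIST1H2BI held in all 15 alternatives (0.54 to 0.99), that of HIST1H3I was lost in 5 (0.61 to 0.99, largest adjusted p = 0.209) and that of HIST3H2A in 7 (0.56 to 0.79, largest adjusted p = 0.1718). HIST1H2BB went from 98.5 and 98.8 CPM to 152 and 111 CPM. The abundant HIST1H3B, HIST1H4C and HIST1H1C overlapped DMSO. The count changed with the library left out, and so did the calls over all genes. Fits with a lone library in a group are therefore not read as results about the family.

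The falls in U-937 were spread over the blocks on chromosome 6. With both agents all 5 members at chr6:27125897-27147562 and all 14 tested at chr6:27807479-27893891 were lower, with medians of -1.67 and -1.48. Of 23 tested at chr6:26017032-26285638, 22 were lower, with a median of -1.13. The 2 tested at chr1:228424845-228463104 were the HIST3H2A and HIST3H2BB pair. Members with the octamer had a median of -1.40 (19 of 21 lower) and those without it -1.19 (25 of 29 lower), and members with a transcript annotated past the stem-loop had 8 of 11 lower with a median of -1.14. These are counts and medians with no test between the subsets.

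Genes around the histone pathway moved in the same U-937 libraries. Of 10 genes for S phase entry and DNA synthesis, all 10 were lower with both agents (median -2.53), 3 were higher and 3 lower with ATRA (median -0.01), and 1 was lower with Corin. PCNA, the DNA polymerase clamp, fell by 2.61 on the log2 scale with both agents, RRM2, a subunit of ribonucleotide reductase, by 2.14, and MKI67, a marker of cycling cells, by 2.11. The part of these genes, or of cell cycle phase, in the members' fall was not tested. Of 14 factors of histone mRNA transcription, processing and decay, 9 were lower and 1 higher with both agents (median -0.71), and with ATRA 4 were lower (median -0.12). SLBP was at 119 and 135 CPM with DMSO and 35.5 and 42 CPM with both agents, a fall of 1.71 ± 0.11. LSM11, a subunit of the U7 particle, fell by 2.39 and NPAT, an activator of histone gene transcription, by 0.52, whereas HINFP, an activator of H4 genes, rose by 0.33. Of 14 histone chaperones 13 were lower with both agents (median -1.40), including NASP (-2.11) and CHAF1B (-3.87). With ATRA alone the chaperones were split, with 2 higher and 7 lower.

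The histone variants, which are made outside S phase as well, did not all follow. Of 10 tested in U-937, 6 were higher and 0 lower with ATRA (median 0.63), and 3 were higher and 3 lower with both agents (median 0.23). H1F0, the linker histone linked to non-dividing cells, rose by 1.47 with ATRA and by 0.89 with both. H2AFZ, the H2A.Z gene, fell by 1.61 with both agents, and H2AFX, the H2A.X gene, rose by 0.82 with ATRA and fell by 0.83 with both. H3F3A, an H3.3 gene, rose by 0.70 and by 0.26.

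In SKNO-1, no member was called with ATRA. By edgeR's quasi-likelihood test 0 of 61 were called, where 2.96% of all genes were higher and 3.79% lower. In addition, 0 members had an unadjusted p under 0.05 and DESeq2 also called 0, with no like shares over all genes given. The summed level of all members was 6936 and 3799 CPM in the 2 DMSO libraries and 5258 and 5665 CPM with ATRA, so the ATRA libraries lay between the DMSO libraries. This comparison rests on which DMSO library is used. Without DMSO library 1, 53 members were called higher and 1 lower (13% and 16.2% of all genes), and without DMSO library 2, 0 were higher and 48 lower (9.18% and 15.6%). With a lone DMSO library, its spread is assumed to be that of the other groups.

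With Corin the SKNO-1 sum was 4528 and 4426 CPM, again between the DMSO libraries. Of 61 members 1 was called higher and 6 lower, against 20.5% and 17.3% of all genes. Both Corin libraries lay above both DMSO libraries in 4 members and below in 9, against 33.9% and 30.9%. HIST4H4, named H4C16 in newer annotation and a member known to be polyadenylated too, was at 8.94 and 4.28 CPM with DMSO, 4.31 and 4.41 CPM with ATRA, 16.4 and 17.7 CPM with Corin, and 27.6 and 27.4 CPM with both. It rose by 1.37 ± 0.28 with Corin (adjusted p = 0.00711), with values from 0.89 to 2.00 over 15 alternatives and the call lost in 1 of them. The lower members were HIST1H2AD, HIST1H2BN (-0.89 ± 0.21), HIST1H2AB (-0.86 ± 0.27), HIST2H2AB, HIST1H2BC and HIST1H2BF. HIST1H2BN was at 89.4 and 53.6 CPM with DMSO and 38.7 and 38.6 CPM with Corin. Over 15 alternatives its value ran from -1.25 to -0.47 and its call was lost in 5 (largest adjusted p = 0.1128), while HIST1H2AB ran from -1.29 to -0.34 and lost its call in 7 (largest adjusted p = 0.1983). Without DMSO library 1 the counts were 34 higher and 7 lower (24.4% and 24.9% of all genes), and without DMSO library 2 they were 2 higher and 51 lower (24.4% and 27.7%). Leaving out either Corin library left fewer members called, with no share over all genes given for those fits.

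With both agents the SKNO-1 sum lay within the range of its DMSO libraries. It was 6785 and 6531 CPM, and 7 of 61 members were called higher and 1 lower, against 24.7% and 22% of all genes. Without overlap, 22 members were above DMSO and 2 below, against 35.5% and 34.7%. HIST4H4 rose by 2.10 ± 0.29 (adjusted p = 0.000699). HIST1H2BE, at 31.0 and 15.3 CPM with DMSO and 60.9 and 59.4 CPM with both, rose by 1.42 ± 0.28, and HIST1H4F rose by 1.31 ± 0.30 from 22 and 10.3 CPM to 39.6 and 38 CPM. Over 15 alternatives the 3 rises kept their calls, with values of 1.64 to 2.74, 0.97 to 2.03 and 0.83 to 1.98. HIST1H2BF fell by 0.47 ± 0.15 (adjusted p = 0.0349), a call lost in 7 of 15 alternatives (-0.72 to -0.20, largest adjusted p = 0.1803). HIST1H3G, HIST1H3J, HIST1H2BI and HIST2H2BF were the other members called higher. Without DMSO library 1, 49 were higher and 1 lower (32.7% and 27.9% of all genes), and without DMSO library 2, 14 were higher and 18 lower (25.7% and 27.1%). Leaving out 1 library of both agents or 1 Corin library left fewer members called, with no share over all genes given for them. HIST4H4 was called in each of these fits.

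None of the 5 tested H1 genes was called with ATRA, Corin or both in SKNO-1 in the fit of all 8 libraries. Without DMSO library 1, 4 of the 5 were called higher with each treatment. Without DMSO library 2, 4 were lower with ATRA, 4 lower with Corin and 1 higher with both. HIST1H1C was at 476 and 318 CPM with DMSO, 387 and 424 CPM with ATRA, 396 and 387 CPM with Corin, and 503 and 483 CPM with both. Its log2 fold changes were 0.06 ± 0.17, -0.02 ± 0.17 and 0.36 ± 0.17. HIST1H1A, near 1 CPM, was at 0.870 and 1.3 CPM with DMSO and 1.90 and 1.53 CPM with both. The germline HIST1H1T did not pass the filter.

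Comparisons among the treated SKNO-1 groups do not need the DMSO libraries. Against Corin alone, both agents together were higher in 59 of 61 members by the fitted value, with a median of 0.73 over the members and 0.01 over all genes, and both libraries lay above both Corin libraries in 57 members and below in 1, against 31.1% and 39.3% of all genes. In the fit of all 8 libraries edgeR called 0 members, where 4.82% of all genes were higher and 5.6% lower. There 39 members had an unadjusted p under 0.05 and DESeq2 called 16, with no like share over all genes given for either count. In the fit of the 6 treated libraries, an alternative chosen after seeing the data, 55 were higher and 0 lower (20.5% and 21.1% of all genes). In a fit of only the 4 libraries compared it was 55 and 0 too. With the GC trend of each library removed in the fit of 8 libraries, 1 was called. Against ATRA alone, both agents gave 7 higher and 2 lower in the fit of 8 (23% and 21.8% of all genes), and 44 higher and 5 lower in the fit of the 6 treated libraries (34.2% and 27.7%). Without overlap, 43 were above ATRA and 7 below, against 40.8% and 38.5% of all genes. HIST4H4 was the largest rise over ATRA, 2.67 ± 0.30, and HIST1H2BN (-0.66 ± 0.21) and HIST1H2BF (-0.56 ± 0.15) were the falls. HIST2H3D (1.82 ± 0.55) and HIST2H4B (1.49 ± 0.38) were also higher over ATRA, but share reads with near copies. Over 16 alternatives HIST4H4 kept its call, and calls were lost in 8 for HIST1H2BN, 6 for HIST2H3D, 5 for HIST2H4B and 4 for HIST1H2BF. Over ATRA, leaving out 1 ATRA or combination library left fewer members called, with no share over all genes given for those fits. Beyond additivity edgeR called 0 members, against 0.315% of all genes higher and 0.149% lower. DESeq2 called 2 members, and of all 14020 genes it tested it called 169 higher and 108 lower. By edgeR's unadjusted p, 11 members were under 0.05, with no like share over all genes given. Without DMSO library 1, 9 members lay above the sum and 0 below, against 3.8% and 2.52% of all genes. Without DMSO library 2, 56 lay above and 0 below, against 18.2% and 12.7% of all genes.

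In SKNO-1 the pathway lists and the members are given side by side. With both agents 9 of the 10 S phase genes were lower (median -0.62), while the members' median was 0.42. PCNA was lower by 0.29 and MKI67 by 0.58. Of the 14 mRNA factors 8 were lower with both agents (median -0.31), with SLBP at -0.19, and with ATRA only LSM11 was called, higher by 0.46. With Corin 8 S phase genes and 8 mRNA factors were lower. Chaperones were 1 higher and 7 lower with both agents. Among 11 variants H1F0 was higher by 2.17 with Corin and by 2.60 with both. Without DMSO library 1 the lower genes with both agents were 9 of S phase, 10 mRNA factors and 9 chaperones, and without DMSO library 2 they were 10, 10 and 7. With Corin these counts were 10, 11 and 8 without DMSO library 1, and 8, 10 and 9 without DMSO library 2. With ATRA 4 mRNA factors were higher and 2 lower without DMSO library 1, and 2 were higher without DMSO library 2.

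The lines were compared directly by an interaction term in a fit of all 16 libraries, as U-937 minus SKNO-1. The lines also differed in medium and in GM-CSF, which cannot be told apart from line in these comparisons. For the response to both agents, 43 of 63 members had a more negative change in U-937 and 0 a more positive one, with a median difference of -1.44, against 22.7% and 17.9% of all genes. HIST1H3B differed by -1.67 ± 0.26 and HIST1H1C by -1.26 ± 0.22. The count was 51 without SKNO-1 DMSO library 1 (23.8% of all genes more negative and 17.4% more positive), 44 without SKNO-1 DMSO library 2 (21.8% and 17.9%) and 27 without U-937 DMSO library 1 (19.1% and 14.7%). All 10 S phase genes differed in the same direction (median -1.93). For ATRA 4 members responded more in U-937 (HIST1H1C, HIST1H2BB, HIST1H2BF and HIST1H2BM) and for Corin 2 (HIST1H2AB and HIST1H2BN), against 10.6% and 5.28% of all genes. None responded less, against 8.81% of all genes for ATRA and 7.49% for Corin. Without SKNO-1 DMSO library 2 these counts were 49 for ATRA, against 11.9% of all genes in each direction, and 43 for Corin, against 12.4% of all genes responding more and 9.1% less. Without SKNO-1 DMSO library 1 they were 0 and 0, with 1 member responding less in U-937 to ATRA (9.77% of all genes more and 12.1% less for ATRA, and 5.04% and 7.69% for Corin). Without any other single library these counts stayed far under those found without SKNO-1 DMSO library 2, with no share over all genes given.

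Some members were at or near 0 counts in 1 of the lines, where line, medium and GM-CSF cannot be told apart. With DMSO, HIST1H2BG was at 95.0 and 65.6 CPM in SKNO-1 and had 0 counts in U-937, at least 1703-fold higher in SKNO-1 against a floor of 3 counts over the 2 libraries. HIST1H2AE was at least 1335-fold, HIST1H4L at least 1221-fold, HIST1H4F at least 342.5-fold and HIST1H3E at least 11.3-fold higher in SKNO-1. HIST1H3G summed to 3172 counts in SKNO-1 under DMSO and to 2 in U-937, HIST4H4 had 450 and 1, and HIST1H1A 75 and 3. In the other direction HIST3H2BB was at least 169-fold and HIST3H2A at least 32.8-fold higher in U-937, so the pair that rose with both agents in U-937 was at 0 counts in SKNO-1 with DMSO. HIST1H2BE was 27.0-fold and HIST1H3I 9.77-fold higher in SKNO-1. By edgeR 6 of 63 members were called higher in U-937 and 20 lower, against 31.7% and 33.1% of all genes. HIST1H2BO was the member with the largest called rise in U-937 outside that pair, 0.84 ± 0.19 (adjusted p = 0.00171). The call count was 52 without SKNO-1 DMSO library 1 and 40 without SKNO-1 DMSO library 2, with 36 higher and 16 lower in the first (32% and 29% of all genes) and 4 higher and 36 lower in the second (29.7% and 30.7%).

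**Figure D5:**
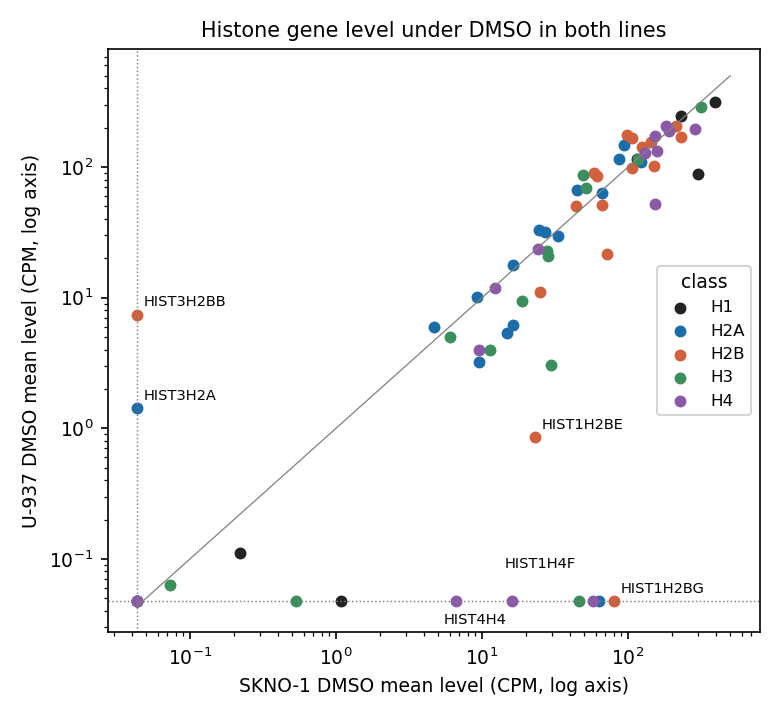
Mean CPM under DMSO of each member in SKNO-1 (x axis) and U-937 (y axis), both on log axes, colored by class, with the diagonal of equal levels. Members at or under the floor of 3 counts are drawn on the dotted lines, where HIST1H2BG lies for U-937 and HIST3H2BB for SKNO-1.

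The authors' deposited tables of their own comparisons gave like counts at an adjusted p under 0.05. In U-937 the authors' deposited table lists 48 members higher and 0 lower with ATRA, 6 and 0 with Corin, and 3 and 48 with both agents. In SKNO-1 the authors' deposited table lists 0 and 0 with ATRA, 1 and 7 with Corin, and 6 and 2 with both. The shares over all genes in the authors' lists were not computed.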

How the data were processed

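Per the labels' protocols, total RNA was sequenced from 16 libraries with a stranded total RNA kit, with spike-in RNA added, and the count table holds 0 spike-in rows. Per the submitters' processing notes, the tools included Trimmomatic, STAR, RSEM, deepTools and DESeq2 with the hg38 build. The versions, the annotation release and the strand setting are not given in the sources used here. Estimated counts, made by the authors with RSEM, were deposited in a table of genes, and TPM, scaled by length and by library, in a deposited file for each library. They also deposited log2 fold changes and adjusted p-values from DESeq2 for each treatment against control, used here only as the authors' own tables.

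The estimated counts were rounded, which changed a library total by at most 42.03. Genes with low counts were removed with edgeR's filterByExpr, and edgeR 4.0.16 (R 4.3.3) fitted TMM-scaled quasi-likelihood models to the 8 libraries of each line, and to all 16 for the comparisons between lines, with Benjamini-Hochberg adjustment over all genes tested and a threshold of 0.05. Residual degrees of freedom were 4 in each line and 8 over both. CPM are on TMM-scaled library totals. The fits of each line and of all 16 libraries were tested on simulated counts. Alternatives were plain library totals, DESeq2 1.42.0, no filter on low counts, a replicate block, removal of each library's GC trend, fits of the 4 libraries compared and leaving out each library. A fit without both SKNO-1 DMSO libraries was chosen after seeing the data.

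Named were every H1 gene, the 3 members of each other class with the highest mean TPM, for each comparison the 3 largest called rises and falls with at least 1 CPM, and genes of lists for histone mRNA factors, histone variants, chaperones, S phase and other cell types. Members outside this rule that are named with a count of calls were chosen after their values were seen. The members and the lists were chosen with earlier results of these data known. Sequences and coordinates are from the hg38 genome with GENCODE 44 and from RefSeq promoters.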

Additional observations from a re-analysis of the deposited data

Results flagged for a closer look

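The change over DMSO differed between the lines by an interaction term in edgeR for 3 treatments, as U-937 minus SKNO-1. With ATRA 4 members differed, and the named ones were HIST1H1C (0.71), HIST1H2BB (0.70) and HIST1H2BF (0.62) on the log2 scale. Of all genes, 10.6% responded more in U-937 and 8.81% less. With Corin 2 differed, HIST1H2AB (1.13) and HIST1H2BN (0.87), against 5.28% of all genes responding more and 7.49% less. With both agents 43 differed, against 22.7% of all genes more negative in U-937 and 17.9% more positive. HIST2H3D (-2.83), HIST1H2AK (-2.46) and HIST1H4I (-2.41) had the most negative differences among those named by the rule. All of these contrasts use the SKNO-1 DMSO libraries that stand apart, and line, medium and GM-CSF cannot be told apart in them. Without SKNO-1 DMSO library 1 the 3 counts were 1, 0 and 51, the first of these in the other direction, and without SKNO-1 DMSO library 2 they were 49, 43 and 44. Over 22 alternatives the call was lost in 16 for HIST1H1C (0.32 to 0.93), 15 each for HIST1H2BB and HIST1H2BF, 16 for HIST1H2BN, 8 for HIST1H2AB, 5 for HIST2H3D and 2 for HIST1H4I, and in none for HIST1H2AK (-3.55 to -1.83).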

How the results depend on the processing

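The 4 U-937 comparisons of ATRA and of both agents, and that beyond additivity, stayed within 1.5 times their member counts under every alternative run. Leaving out 1 library gave 43 to 48 (ATRA), 49 to 50 (both agents), 50 to 52 (over ATRA), 48 to 52 (over Corin) and 49 to 52 (beyond additivity). For U-937 Corin the range was 1 to 11, for SKNO-1 0 to 54 (ATRA), 0 to 53 (Corin), 3 to 50 (both agents), 1 to 48 (over ATRA), 0 to 56 (over Corin) and 0 to 56 (beyond additivity). Between the lines it was 0 to 49 (ATRA), 0 to 43 (Corin), 27 to 51 (both agents) and 19 to 52 (DMSO level).

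With no filter on low counts SKNO-1 members called were 5 (ATRA), 43 (Corin), 46 (both agents), 44 (over ATRA), 58 (over Corin) and 44 (beyond additivity). Of all 30668 genes then tested in SKNO-1, 1963 (ATRA), 4238 (over Corin) and 1445 (beyond additivity) were called. Between the lines the members called were 12 (ATRA) and 7 (Corin). Member counts in this and the preceding paragraph with no share over all genes beside them are not read as results about the family. DESeq2 called 15 (SKNO-1 over ATRA), 16 (over Corin), 2 (beyond additivity), 17 (between lines, ATRA) and 4 (between lines, Corin). On library totals the counts were 13 (SKNO-1, both agents), 1 (over Corin) and 8 (between lines, ATRA). With only the 4 libraries compared they were 2 (SKNO-1 Corin), 3 (both agents), 45 (over ATRA), 55 (over Corin) and 11 (U-937 Corin). Of all genes, 14.6% were higher and 7.99% lower (SKNO-1 Corin), 18.7% and 14% (both agents), and 32% and 31.1% (over ATRA). These shares were 22.7% and 21% (over Corin) and 10.3% and 5.48% (U-937 Corin). Without both SKNO-1 DMSO libraries the member counts were 49 (over ATRA) and 55 (over Corin). The shares of all genes were 34.2% higher and 27.7% lower (over ATRA) and 20.5% and 21.1% (over Corin). With the GC trend removed they were 1 (SKNO-1 over Corin) and 2 (U-937 Corin). Correlations of same-numbered deviations between groups of a line were -0.488 to 0.418. Some of these deviations also followed GC content, so the correlations cannot decide whether the replicate numbers pair the samples. With a replicate block the ATRA difference between the lines had 0 members called, and with block and GC trend removed the counts were 1 (SKNO-1 ATRA), 1 (SKNO-1 over Corin) and 1 (U-937 Corin). By CPM in place of TPM, 7 of the 12 leading members stayed. HIST3H2BB over ATRA in U-937 was -0.10, ranged from -0.23 to 0.033 with 1 library left out, and became 0.02 without ATRA+Corin library 1 and 0.033 without ATRA library 2. The cause of these shifts was not tested.

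Over all genes, called counts moved for SKNO-1 ATRA from 1181 to 1963 (no filter), 2586 (GC), 2444 (block and GC) and 239 (4 libraries), for SKNO-1 Corin from 6619 to 3776 (4 libraries), and for SKNO-1 over Corin from 1822 to 4238, 3096, 2864 and 7440, with 1066 under the block and 7187 without DMSO. Beyond additivity in SKNO-1 they moved from 81 to 277 (DESeq2), 1445 (no filter), 20 (block), 699 (GC) and 552 (block and GC), and for Corin between the lines from 2538 to 4551 (GC) and 4088 (block and GC). The higher and lower calls for ATRA between the lines were 2100 and 1750, and 1726 and 2358 on library totals, and for Corin 1050 and 1488, and 2503 and 2048 with the GC trend removed. Library totals moved the median of all genes from 0.03 to -0.09 for both agents in U-937, and from -0.11 to -0.26 for both agents between the lines. With 2 libraries a group and shared reads, single low members are the least precise.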
